A study of Mus musculus with 24 samples.

Results

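The comparison described here set the cerebral cortex of unexposed mouse pups against whole blood of unexposed pups, and covered 11 of the 24 libraries of the series. The members were the control libraries named by tissue in the sample labels, 6 from cortex (V10, V12 and V19 from females, V14, V16 and V24 from males) and 5 from blood (V4 and V17 from females, V6, V8 and V22 from males). The pups were labelled C57BL/6J, while the methods of the study give C57BL/6NJ, and were 3 to 5 days old by their labels and 5 days old by the methods. Their dams were exposed to filtered air in chambers, in repeated sessions during gestation, and the other 12 libraries, 6 per tissue, came from pups whose dams inhaled resuspended nano-sized particulate matter (nPM) in the same kind of chamber. The tissues were snap-frozen blood and dissected cortex, the RNA was depleted of ribosomal RNA before sequencing, and the pups of a group were drawn from different litters. The study describes both tissues as coming from the same animals, but no label ties a blood library to a cortex library of 1 pup, and the tests treated the libraries as independent.

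Another control blood library, V2 from a female, was left out. The 18 genes of a skin list summed to 27186 CPM in V2 and to between 15.5 and 64.8 CPM in the 5 other control blood libraries. For these CPM sums, and for every level given below, counts were divided by the library's counts outside the 13 globin genes and multiplied by 1000000. The sequencing lane was not spread evenly over the tissues. Lane 1 held blood alone (V4, V6 and V8), lane 2 held cortex alone (V10, V12, V14 and V16) and lane 3 held both (V17, V22, V19 and V24). RNA integrity numbers ran from 9.4 to 9.8 in cortex and from 7.5 to 9.3 in blood, without overlap, so that a model can use the spread of RNA integrity within a tissue alone. With it as a covariate, 7514 genes were called higher in cortex and 3748 in blood, in place of the 9280 and 4751 given below.

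Blood is a suspension in which red cells outnumber white cells and platelets by far. A mature mouse red cell has no nucleus, and its RNA is what remains from the erythroblast and reticulocyte, stages that make hemoglobin from globin chains, heme and iron and then clear their organelles. The cortex of a pup in its first week is a nervous tissue in which most neurons have been born and have migrated, while axons and synapses are still being formed, astrocytes are multiplying and myelin is barely begun. It also holds vessels, microglia and traces of the blood inside its vessels.

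The marker genes of both tissues followed the labels. Neurod6, a transcription factor of cortical excitatory neurons on chromosome 6, had 0 counts in blood libraries V4, V6 and V8, 3 in V17 and 2 in V22. In cortex its level ran from 155 to 197 CPM with a median of 167 CPM. Tubb3, the neuronal beta tubulin, stood at 0.85 CPM in V4, 1.16 in V6, 0.553 in V8, 6.68 in V17 and 8.44 in V22, and at 1401 to 2010 CPM with a median of 1570 CPM in cortex. The 2 blood libraries of lane 3 were the highest for both genes, and neither gene came near its cortex level in any blood library. The globin genes Hbb-bs (beta chain) and Hba-a1 (alpha chain) were the reverse. Hbb-bs took 40.2% of all counts in V4, 37.4% in V6, 32.7% in V8, 36.1% in V17 and 40.7% in V22, against 0.0164 to 0.0388% in cortex. Hba-a1 took 12.1, 11.2, 14.7, 13.7 and 13.6% in the same order, against 0.00579 to 0.0122% in cortex.

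The composition of the libraries separated the tissues on most measures. The adult and embryonic globin genes together took 73.9 ± 2.06% of blood counts (SD, n = 5) and 0.0431 ± 0.0169% of cortex counts (n = 6). The blood libraries had 13595647 to 21895536 counts in all, but 3616231 to 5879771 outside the globin genes, whereas the cortex libraries had 25470666 to 33179851 in all. Cortex libraries had 25675 ± 173 genes with any count and blood libraries 14563 ± 1136. The 10 most counted genes of a library took 9.48 ± 0.584% of its counts in cortex and 82.2 ± 1.55% in blood. Of 18 such measures, 16 did not overlap between the tissues and gave an exact permutation p of 0.00433 (two-sided, the smallest that 6 against 5 libraries allow, 0.00487 after Benjamini-Hochberg adjustment over the 18).

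**Figure D1:**
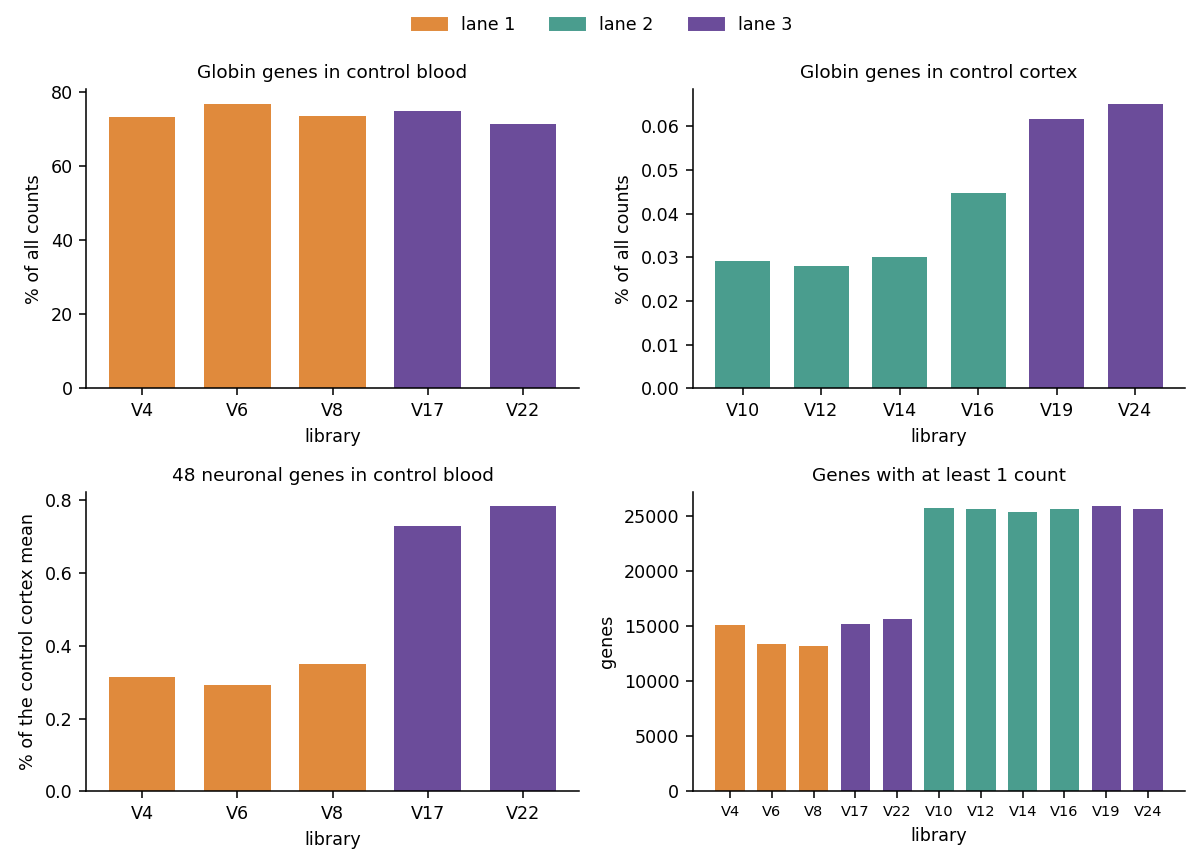
Bars give, for each control library, the percent of all counts on globin genes in blood and in cortex (separate axes), the summed level of 48 neuronal genes in blood as percent of the control cortex mean, and the number of genes with at least 1 count, colored by sequencing lane. The globin share lies between 71.3 and 76.8% in blood and between 0.0280 and 0.0652% in cortex. The lane 3 bars are the highest for the neuronal genes in blood and for the globin genes in cortex.

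Outside the globin genes, protein-coding genes took 90.2 ± 0.569% of cortex counts and 78.3 ± 2.34% of blood counts. The difference was filled mainly by small structural RNAs (annotated misc_RNA, 0.488 ± 0.161% in cortex and 7.4 ± 1.82% in blood) and by the mitochondrial ribosomal RNAs (5.59 ± 0.540 and 9.74 ± 0.589%). Long intergenic RNAs (lincRNA) took 1.22 ± 0.189% in cortex and 1.07 ± 0.294% in blood (exact permutation p = 0.364, two-sided, n = 6 and 5), and their ranges overlapped. In bulk tissue, fewer cells of a type and less RNA per cell cannot be told apart, for these shares and for every gene below.

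Of the 48709 genes in the table, 31272 had a count in at least 1 of the 11 libraries and 18026 had 10 or more counts in at least 5 of them, which was the condition for testing. With TMM normalization (trimmed mean of M-values) and sex as a covariate, edgeR's quasi-likelihood F test called 9280 of the 18026 genes higher in cortex (51.5%) and 4751 higher in blood (26.4%) at an adjusted p under 0.05. At least 4-fold differences with that adjusted p were found for 6010 genes higher in cortex (33.3%) and 2672 higher in blood (14.8%). Positive log2 fold changes below mean higher in cortex, and all adjusted p-values are from that edgeR test with Benjamini-Hochberg adjustment over the 18026 genes. In all, 877 protein-coding genes had 10 or more counts in every cortex library and 0 in all 5 blood libraries, where a count of 0 still allows 0.122 CPM over the group (3 counts, counting error only).

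The balance of calls depended on the reference for the fold change. TMM assumes that most genes share a common ratio, and it set the median log2 fold change of all genes tested at 0.99. When counts were instead taken as shares of the counts outside the globin genes, with no further factors, the median was 3.49, a shift of 2.50 on the log2 scale or 5.66-fold. On this share scale 15258 genes were called higher in cortex (84.6%) and 1759 higher in blood (9.76%), and the cortex share of the calls was 89.7% in place of 66.1%. At 4-fold or more the percentages were 72.2 and 5.44. Counts of gene lists below stand against these percentages over all genes, 51.5 and 26.4 by TMM and 84.6 and 9.76 on the share scale. Where a TMM value is given and the share scale has the other sign, both are given, and a gene with a TMM fold change near 0 has a CPM some 5.66-fold higher in cortex. With the 2217 tested genes that were at 0 in every library of a tissue placed at the bound given by 3 counts, the median on the share scale was 3.17.

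**Figure D2:**
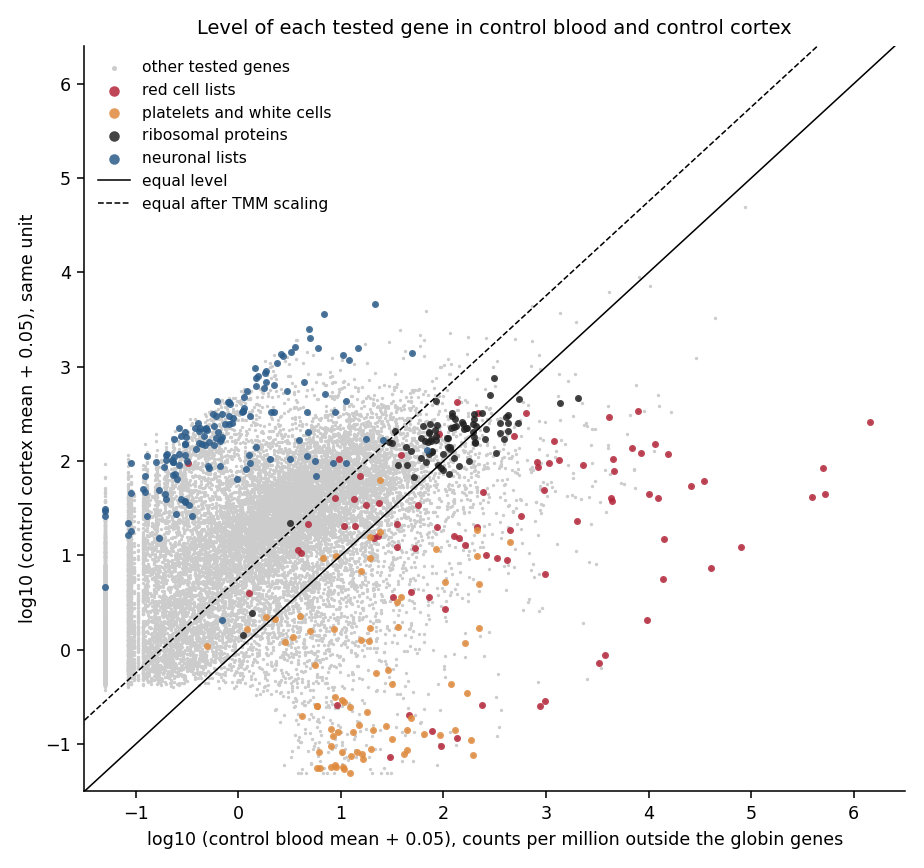
Mean level in control cortex (vertical) against control blood (horizontal) for the 18026 genes tested, as log10 of CPM outside the globin genes plus 0.05, with red cell, platelet and white cell, ribosomal protein and neuronal lists colored. The solid line marks equal CPM and the dashed line equality after TMM scaling; most neuronal genes lie above both lines, most red cell, platelet and white cell genes below both, and the ribosomal proteins mainly between or near them.

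Hemoglobin genes led the blood libraries. The 4 adult globin genes were all higher in blood, with a median log2 fold change of -15.43 (-12.85 on the share scale). Hbb-bt stood at -16.04 ± 0.46 (SE), Hba-a2 at -15.77 ± 0.59, Hba-a1 at -15.08 ± 0.34 and Hbb-bs at -15.00 ± 0.35. Here and below, the SE of a fold change is its absolute log2 value divided by the square root of its F statistic. It was not estimated separately, and it may be too small for genes with few counts in a tissue. Hbb-bs and Hbb-bt, and likewise Hba-a1 and Hba-a2, are near-identical copies whose reads may have been split between them, so that the values of single copies are uncertain and the sum of a pair is safer. The share of Hba-a2 moved from 6.36% of counts in V4 to 13.7% in V6, a wider spread than that of Hba-a1.

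Embryonic globins are those of the yolk sac red cells that precede the adult line, and their genes remained detectable at low counts in these pups. Hba-x, the zeta chain, had 0 counts in V4, 348 in V6, 2 in V8, 42 in V17 and 114 in V22. Hbb-y, the epsilon-like chain, had 6, 22, 27, 29 and 26 counts in the same order, and Hbb-bh1 had 4 to 9. Hba-x varied far more between pups than Hbb-y and was highest in V6 without a matching rise of the other 2 genes. Hbb-bh2 had no count. None of the 4 genes passed the count condition, so they were not tested, and cortex held 2 counts of them in all, on Hbb-y in V16.

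The upstream sequences of 3 leading genes are given so that short motifs that textbooks assign to erythroid, neuronal and other promoters can be read in them. Each is the 150 bases before the RefSeq transcription start (GRCm38.p6, the build also called mm10), read 5′ to 3′ on the gene's strand, with matches on either strand in capitals. The letters searched were AGATAA for the erythroid factor motif, CCACACCC for the box bound by Klf1 and its relatives, CAGATG for an E-box of neuronal factors and CCAAT for the common upstream element. The Gencode gene models used for counting begin at other bases for Hbb-bs and Alas2. The first is the Hbb-bs promoter at chr7:103827929-103828078 on the minus strand, with CCACACCC at position -93 and CCAAT at -76 from the start. The second is that of Alas2, the erythroid enzyme of the first step of heme synthesis, at chrX:150547267-150547416 on the plus strand, with an AGATAA match at -86. The third is that of Neurod6 at chr6:55681264-55681413 on the minus strand, with a CCAAT match at -122 and none of the other 3 motifs.
Hbb-bs: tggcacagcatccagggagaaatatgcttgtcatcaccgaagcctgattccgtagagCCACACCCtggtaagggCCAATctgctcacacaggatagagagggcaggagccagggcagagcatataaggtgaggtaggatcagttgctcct
Alas2: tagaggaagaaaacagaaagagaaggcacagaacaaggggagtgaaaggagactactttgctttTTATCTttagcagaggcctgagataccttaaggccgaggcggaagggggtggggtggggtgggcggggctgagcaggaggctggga
Neurod6: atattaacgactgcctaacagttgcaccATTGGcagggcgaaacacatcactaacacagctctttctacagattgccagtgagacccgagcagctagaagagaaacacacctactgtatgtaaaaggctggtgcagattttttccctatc

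Across windows of 300 bases (250 before to 50 after the start), AGATAA on either strand was found in 11.2% of 32851 RefSeq promoters, in 6.76% of those of the genes tested, in 9.27% of those at least 4-fold higher in blood and in 6.2% of those at least 4-fold higher in cortex. The red cell lists, with 108 promoters of 80 genes, held it in 16.7%, and the neuronal lists in 8.66%. CCACACCC was found in 3.56% of all promoters, in 3.60% of those of the genes tested, in 2.78% of those of the red cell lists and in 0.787% of those of the neuronal lists. For CAGATG the percentages were 17.2, 12.2, 14.8 and 10.2 in the same order, and for CCAAT 37.4, 37.3, 40.7 and 29.9. No difference between these percentages was tested. A match of letters is a description of the window and not a binding site.

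Heme synthesis and iron handling were mostly on the blood side. Alas2 stood at 73914 CPM in V4, 87602 in V6, 78985 in V8, 74675 in V17 and 77951 in V22, against 6.92 to 19.1 CPM (median 11.4) in cortex, a log2 fold change of -15.18 ± 0.39 (adjusted p = 2.18e-16). The 5 blood libraries agreed closely for it, and the 2 cortex libraries of lane 3 were the highest of the 6 (17.5 and 19.1 CPM). Of 19 genes of heme synthesis and iron uptake, 18 were higher in blood and 1 in cortex by TMM, with a median of -4.55. On the share scale 14 were higher in blood and 5 in cortex (median -1.97). Slc25a37 (mitoferrin, which carries iron into mitochondria) had -12.46 ± 0.27, Fech (ferrochelatase, the last step) had -10.82 ± 0.25 and Ftl1 (ferritin light chain, iron storage) had -7.19 ± 0.21. The gene on the cortex side by TMM was Ireb2, an iron-sensing regulator of mRNA, at 104 ± 17.4 CPM in cortex and 9.62 ± 2.43 in blood (0.88 ± 0.18, adjusted p = 0.00017).

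The membrane of the red cell rests on a protein lattice tied to the anion exchanger. Slc4a1, that exchanger (band 3), stood at 9710 ± 2116 CPM in blood and 2.00 ± 0.692 in cortex (-14.84 ± 0.40). Epb41 (protein 4.1) had -11.73 ± 0.25 and Cd24a, a small surface glycoprotein also made by young neurons, -7.11 ± 0.22. All 24 tested genes of the membrane list were higher in blood by TMM (median -7.78), although 3 of them were higher in cortex on the share scale.

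Among red cell enzymes, Bpgm (which makes the hemoglobin effector 2,3-bisphosphoglycerate), Gpx1 and Cat (which remove peroxides) and Car2 (carbonic anhydrase) had log2 fold changes of -11.47, -10.36, -8.41 and -9.31. Of 16 tested enzymes, 15 were higher in blood by TMM and 1, Ak1 (adenylate kinase), was higher in cortex, against 26.4 and 51.5% of all genes. On the share scale 9 were higher in blood and 7 in cortex, against 9.76 and 84.6% of all genes. Ak1 stood at 95.3 ± 8.31 CPM in cortex and 0.27 ± 0.513 in blood (5.87 ± 0.38), although it is listed as a red cell enzyme. That value rested on 7 counts in blood, most of them in V17, and became 8.41 without V17, 4.50 within lane 3 and 13.64 between lanes 1 and 2. The list of maturation and organelle clearance had 19 of 20 genes higher in blood and none in cortex by TMM (median -6.74), and 18 and 2 on the share scale. Fam46c (a poly(A) polymerase) stood at 40879 ± 3076 CPM in blood and 7.33 ± 2.83 in cortex, Ube2l6 (a ubiquitin-type conjugating enzyme) at 13932 ± 1201 and 5.53 ± 1.28, Bnip3l (which marks mitochondria for removal) at 15590 ± 753 and 118 ± 7.33, and Mkrn1 (a ubiquitin ligase) at 11586 ± 1397 and 153 ± 5.02.

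The transcription factors that direct the erythroid line were likewise on the blood side. Gata1, its central factor, had 136 counts in V4, 124 in V6, 143 in V8, 127 in V17 and 219 in V22 and 0 counts in each cortex library. With 3 counts over the cortex group as the limit of a count of 0, Gata1 was at least 1809-fold higher in blood on the share scale. Of 18 tested factors and regulators, 16 were higher in blood and 1 in cortex by TMM (median -5.70), and 15 and 3 on the share scale. Lmo2, a bridging cofactor of the erythroid complex, had -8.01 ± 0.27, while Foxo3 (-5.04 ± 0.20) and Sox6 (-4.77 ± 0.19) were less far apart, with cortex levels of 55.6 ± 4.67 and 46.6 ± 4.53 CPM. The factor on the cortex side by TMM was Bcl11a, a repressor of embryonic and fetal globin genes that neurons also use, at 100.5 ± 8.61 CPM in cortex and 5.57 ± 1.88 in blood (1.59 ± 0.18).

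Of the 48709 genes of any type, 11 had 10 or more counts in every blood library and 0 in every cortex library. In the reverse direction there were 1877. A count of 0 is harder to reach in cortex, where the group held 178854120 counts outside the globin genes, against 24689082 in blood. The 11 were Gata1, Ms4a4b, Gm6634, Gm10286, Trbc1, Iglc3, Cldn13, Gfi1b, Clec4d, Gm15518 and Gm28609. Ms4a4b and Trbc1 (a T cell receptor constant region) belong to lymphocytes, Iglc3 is an immunoglobulin light chain constant region and Gfi1b is a transcription factor of the erythroid and platelet lines.

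The other cells of blood, platelets and white cells, were seen in their own genes. All 18 platelet genes were higher in blood (median -10.30), with a summed level of 1809 to 2729 CPM in blood and 60.9 to 74.3 CPM in cortex. Ppbp, a platelet chemokine, stood at 119 CPM in V4, 175 in V6, 305 in V8, 140 in V17 and 222 in V22, while cortex held 5 counts of it over all libraries, 2 in V12 and 3 in V16 (-14.89 ± 0.41). Thbs1 (thrombospondin 1) had -7.58 ± 0.27 and Itga2b (an integrin of the fibrinogen receptor) -9.61 ± 0.27. Of 26 neutrophil genes 17 passed the count condition, and those 17 were higher in blood (median -9.61). S100a9, a chain of the neutrophil protein calprotectin, stood at 168 ± 47.3 CPM in blood and 0.298 ± 0.308 in cortex, and its partner S100a8 at 118 ± 41.3 and 0.388 ± 0.355. Of 15 monocyte genes 14 were tested and 13 were higher in blood by TMM (median -3.37), while on the share scale 8 were higher in blood and 1 in cortex (median -0.83).

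Lymphocyte genes followed the same direction. Of 18 B cell genes 13 were tested, and those 13 were higher in blood (median -9.20). Among them was Ighm, the heavy chain of immunoglobulin M, at 104 ± 31.6 CPM in blood and 5.21 ± 0.905 in cortex. Of 22 T and NK cell genes 15 were tested and were higher in blood (median -8.91). Trbc1 had 31.1 CPM in V4, 7.22 in V6, 8.30 in V8, 6.28 in V17 and 8.09 in V22, so that V4 held several times the level of the other 4. All 10 tested genes of antigen presentation were higher in blood (median -5.00). B2m, the common light chain of class I molecules, stood at 171 CPM in V4, 105 in V6, 125 in V8, 115 in V17 and 551 in V22, and the -4.79 ± 0.40 of its fitted difference rests on groups of uneven spread. As genes could pass the count condition through 1 tissue alone, blood or cortex, the counts and medians of tested members describe the lists, here and in the cortex lists below, and do not support them.

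Genes of dividing cells were also on the blood side. All 24 tested mitosis genes were at least 4-fold higher in blood by TMM (median -4.05), against 14.8% of all genes. On the share scale 20 were higher in blood, 9 of them by 4-fold or more (median -1.54), against 5.44% of all genes at 4-fold, and the CPM of 15 of the 24 did not overlap between the tissues, against 88.5% of all genes tested (80.4% higher in cortex and 8.13% higher in blood). The list had summed levels of 2451 to 2956 CPM in blood and 173 to 263 CPM in cortex. Mki67, a nuclear protein of cycling cells, stood at 448 CPM in V4, 368 in V6, 395 in V8, 508 in V17 and 442 in V22 and at 23.4 to 41.8 CPM in cortex (-6.24 ± 0.23). Nusap1 (a spindle protein) had -9.70 ± 0.29 and Ube2c (which targets cyclins for destruction) -10.28 ± 0.24.

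**Figure D3:**
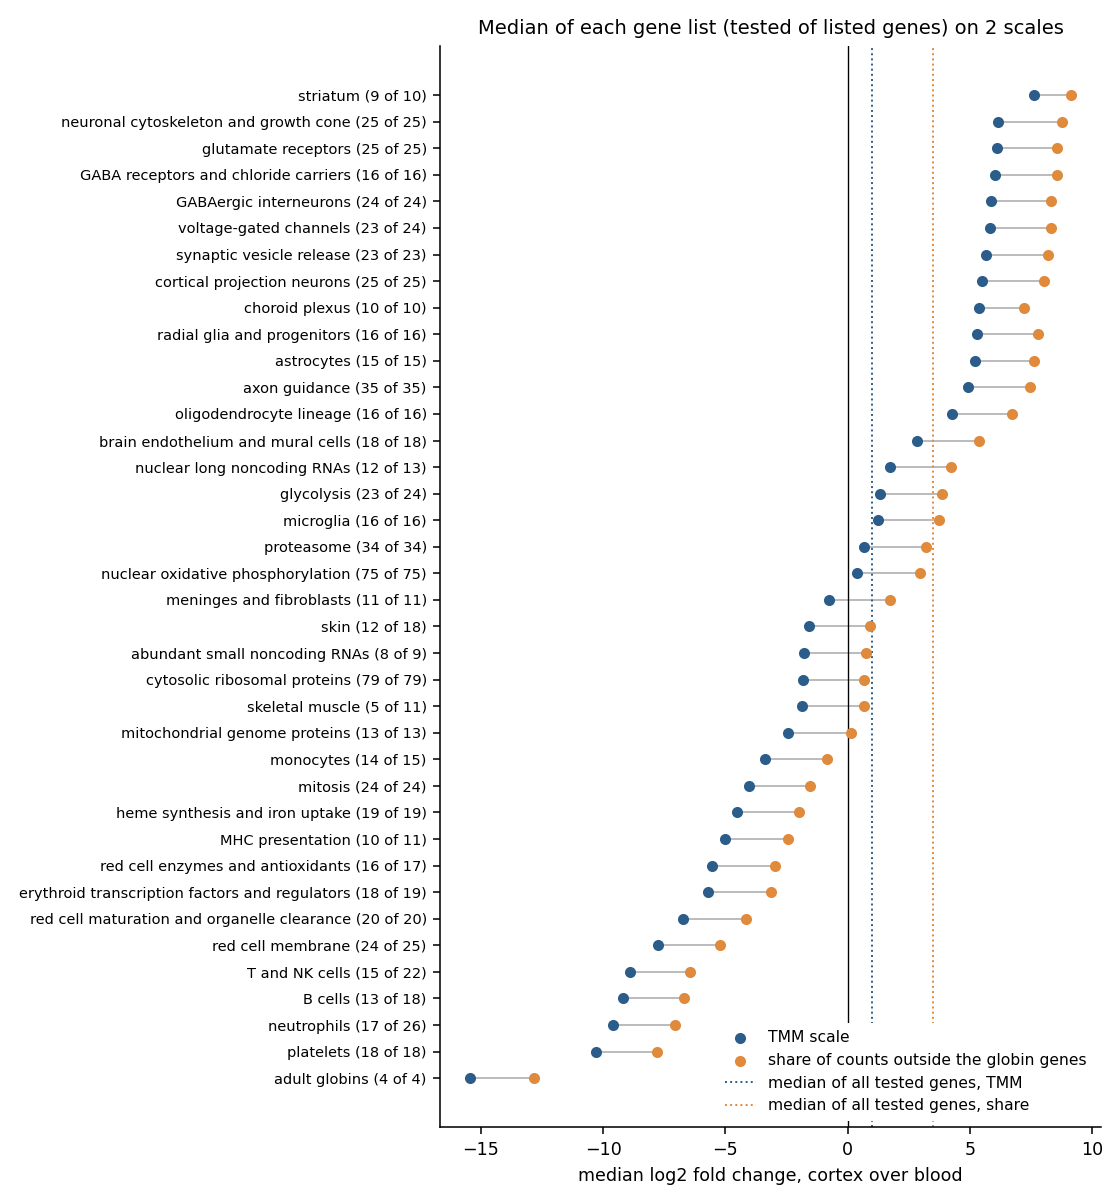
Median log2 fold change of each gene list, cortex over blood, on the TMM scale and on the share scale (counts outside the globin genes), with the medians of all genes tested (0.99 and 3.49) as dotted lines. The blood cell lists lie to the left of 0 and the neuronal lists to the right on both scales, while the ribosomal protein, mitochondrial genome, meninges, skin, muscle and small RNA lists change side between the scales.

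On the cortex side, the genes of excitatory neurons were high and steady among pups. Of 25 genes of cortical projection neurons, 22 were higher in cortex and 1 in blood (median 5.50, 8.01 on the share scale). Mef2c, an activity-dependent transcription factor, stood at 1592 ± 175 CPM in cortex and 14.5 ± 5.86 in blood (4.20 ± 0.27), and Neurod6 had 7.20 ± 0.35 (adjusted p = 1.08e-12). Lmo4, a cofactor of layered cortical neurons, had 2.85 ± 0.19. Foxp1, a further factor of these neurons that lymphocytes use as well, had 166 ± 15.9 CPM in cortex and 25.4 ± 10.1 in blood, and 0.19 ± 0.16 with an adjusted p of 0.277. The gene called on the blood side was Cux1, a factor of upper-layer neurons also found in many other cells, whose sign changed with the scale (-1.60 ± 0.15 by TMM, 0.94 on the share scale).

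Interneuron genes were likewise on the cortex side, 22 of 24 with 1 on the blood side (median 5.85, 8.30 on the share scale and 6.65 there with the 6 genes at 0 in blood at their bound). Erbb4, a neuregulin receptor of these cells, stood at 110 ± 21.2 CPM in cortex and 0.29 ± 0.409 in blood (5.87 ± 0.41). Sox6, named above among the erythroid factors, was the member on the blood side. Reln, which codes for the secreted protein reelin, stood at 44.9 CPM in V4, 49.2 in V6, 54.5 in V8, 69.5 in V17 and 53.0 in V22, against 282 to 373 CPM in cortex (median 319), with a log2 fold change of -0.04 ± 0.19 (adjusted p = 0.856) by TMM and 2.55 on the share scale.

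Genes of synapses, receptors and channels could pass the count condition through their cortex levels alone. All 23 genes of vesicle release were at least 4-fold higher in cortex (median 5.66), against 33.3% of all genes, and their summed level was 7758 to 9447 CPM in cortex and 21 to 65.6 CPM in blood. Snap25, a membrane protein of the fusion machine, had 0 counts in V4, V6 and V8, 25 in V17 and 13 in V22, and 557 to 764 CPM in cortex (median 606). Syt1, the calcium sensor of fusion, stood at 1105 ± 76.8 CPM in cortex and 2.32 ± 3.25 in blood (6.18 ± 0.61), and Syp and Cplx2, a vesicle membrane protein and a regulator of fusion, had 5.90 ± 0.47 and 4.74 ± 0.29. All 25 genes of glutamate receptors and their scaffolds were higher in cortex (median 6.12). Gria2, the AMPA receptor subunit that limits calcium entry, had 0 counts in V4, V6 and V8, 20 in V17 and 29 in V22, and 791 to 912 CPM in cortex (median 833). Grin2b, the NMDA receptor subunit typical of young cortex, had 6.22 ± 0.56.

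All 16 genes of GABA receptors and chloride carriers (median 6.04) and all 23 tested voltage-gated channel genes (median 5.80) were higher in cortex. Gabbr1, a metabotropic GABA receptor subunit, stood at 635 ± 26.5 CPM in cortex and 2.19 ± 1.62 in blood. Slc12a5, the chloride exporter whose rise accompanies the maturing of inhibition, stood at 233 ± 20.1 and 0.528 ± 0.636 (6.15 ± 0.37). Scn3b, a sodium channel subunit, had 6.77 ± 0.37. Over all 10270 genes at 10 CPM or more in cortex, the median coefficient of variation across pups was 7.28%. In blood it was 22.7% over 3367 such genes.

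Genes of axon growth were on the cortex side as well. The 25 genes of the neuronal cytoskeleton and growth cone were each at least 4-fold higher in cortex (median 6.16, 8.77 on the share scale), against 33.3% of all genes by TMM, and they summed to 26708 to 33415 CPM in cortex and 89.7 to 233 CPM in blood. Tuba1a, the alpha tubulin of young neurons, stood at 4609 ± 591 CPM in cortex and 21.3 ± 14.1 in blood (5.11 ± 0.44). Map1b and Map2, microtubule-associated proteins of axons and dendrites, had 6.27 ± 0.74 and 6.30 ± 0.63, and Dpysl3, a growth cone protein, had 5.97 ± 0.60. Of 35 axon guidance genes, 34 were higher in cortex, among them the receptors Epha4 (5.93 ± 0.42) and Robo2 (6.55 ± 0.37) and the adhesion protein Nrcam (6.30 ± 0.41). Sema4d, a semaphorin that lymphocytes carry on their surface, was called on the blood side by TMM (-1.46 ± 0.14) and on the cortex side on the share scale (1.06).

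The size of these fold changes rested on few reads in blood, and it moved with the lane. Summed over 48 neuronal genes, the blood libraries held 0.315% of the control cortex level in V4, 0.292% in V6, 0.351% in V8, 0.729% in V17 and 0.783% in V22. Among these control libraries, those of lane 3 were above those of lane 1, without overlap. Of the other lane 1 blood libraries, V2, which was left out, stood higher at 2.91% and the nPM library V5 at 2.01%. Without V2 and V5, the blood libraries held 0.282 to 0.369% in lane 1 and 0.719 to 0.783% in lane 3, nPM pups included. The median log2 fold change of the projection neuron list was 4.63 within lane 3, where both tissues were run together, and 11.16 between lanes 1 and 2, and that of the cytoskeleton list was 4.89 and 9.18. The medians of the glutamate and GABA receptor lists were 4.76 and 4.81 within lane 3 and 13.75 and 13.62 between lanes 1 and 2. In the other direction, the cortex libraries of lane 3 held more globin than those of lane 2 (0.0615 to 0.0680% against 0.0246 to 0.0447% of counts, nPM pups included). The part of the lane in these values was not tested.

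Glial genes followed the neuronal ones with more exceptions. Of 15 astrocyte genes 14 were higher in cortex (median 5.21). Among them were the glutamate carrier Slc1a2, at 1263 ± 243 CPM in cortex and 2.96 ± 3.61 in blood (6.03 ± 0.58), and Sparcl1, a secreted protein that promotes synapses (5.71 ± 0.43). The exception was Clu, the secreted chaperone clusterin, at 194 ± 32.3 CPM in cortex and 124 ± 20.1 in blood (-1.88 ± 0.17 by TMM, 0.67 on the share scale). Of 16 radial glia and progenitor genes 13 were higher in cortex and 2 in blood by TMM (median 5.27, 7.78 on the share scale and 6.09 there with the 4 genes at 0 in blood at their bound). With 10 counts required in each library the TMM median was -0.0052. Fabp7, a fatty acid binder of radial glia, had 5.88 ± 0.37 and Ptprz1, a receptor phosphatase, 5.47 ± 0.46. The members on the blood side were Vim, the intermediate filament vimentin, at 46.2 ± 6.06 CPM in cortex and 42.1 ± 8.80 in blood, with overlapping ranges (-2.42 by TMM, 0.12 on the share scale), and the receptor Notch1, at 31.0 ± 3.61 and 11.1 ± 5.20 CPM (-1.05 by TMM, 1.45 on the share scale).

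Of 16 genes of the oligodendrocyte lineage, 10 were higher in cortex, 1 in blood and 5 were not called by TMM (median 4.27), and all 16 were higher in cortex on the share scale (median 6.73, and 5.57 with the 2 genes at 0 in blood at their bound). Pdgfra, the receptor of precursor cells, stood at 158 ± 11 CPM in cortex and 0.872 ± 0.442 in blood (5.00 ± 0.26), and Gpr17, a receptor of cells on the way to myelination, had 5.48 ± 0.39. Cnp, an enzyme of myelin sheaths, was the gene called on the blood side by TMM (-0.71) and was on the cortex side on the share scale (1.80). Mbp, a myelin protein, ran from 89.8 to 265 CPM in cortex (median 138) and stood at 46.4 CPM in V4, 31.0 in V6, 25.4 in V8, 41.4 in V17 and 31.5 in V22, with -0.45 ± 0.26 (adjusted p = 0.115) by TMM and 2.10 on the share scale. Mbp was thus above 0 in each blood library, and its ranges in the tissues did not overlap.

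Microglia, the resident macrophages of the brain, share many genes with blood cells. Of their 16 genes, 11 were higher in cortex and 3 in blood by TMM (median 1.22), and 14 and 2 on the share scale (median 3.73), where all genes had 84.6 and 9.76% and a median of 3.49. The TMM median turned to -0.94 when 10 counts were required in each library, a condition that removes genes low in blood. Cx3cr1, the fractalkine receptor, had 33.5 ± 6.00 CPM in cortex and 3.99 ± 1.39 in blood (0.54 ± 0.23, adjusted p = 0.0439). In the nPM pups its value was -0.44 (adjusted p = 0.0521), on the other side of 0, and -0.16 without the nPM blood library V5. P2ry12, a nucleotide receptor that platelets carry too, stood at 49.0 ± 7.98 CPM in blood and 33.6 ± 8.53 in cortex (-3.08 ± 0.19), and Tyrobp, a signaling adaptor of myeloid cells, at 27.1 ± 3.27 and 10.6 ± 1.83 (-3.91 ± 0.18). Csf1r, the receptor of macrophage growth factor, was on the blood side by TMM (-0.95 ± 0.20) and on the cortex side on the share scale (1.59). Of 18 genes of brain endothelium and mural cells, 15 were higher in cortex and 2 in blood by TMM (median 2.84), and 17 and 1 on the share scale (median 5.35), and the TMM median turned to -1.27 with 10 counts in each library. Rgs5, a marker of pericytes, had 4.49 ± 0.25. Slco1c1, a thyroxine carrier of the blood-brain barrier, stood at 86.7 ± 8.70 CPM in cortex and had 3 counts in blood, all in V17. Its ratio of cortex to blood on the share scale was 714 (exact 95% interval 244 to 3465, counting error only), and its fitted log2 fold change of 6.94 ± 0.40 became 13.62 without V17. Pecam1, an adhesion protein of endothelium that platelets and leukocytes also carry, was lower in cortex on both scales (-3.49 ± 0.15 and -0.96), and Esam on TMM alone (-1.18 ± 0.20, 1.37 on the share scale).

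On the cortex side, the most different single genes were not the most abundant ones. By the fitted fold change, the 10 leading protein-coding genes on the cortex side were at 0 in all 5 blood libraries, and their folds are bounds. Fndc4, a membrane protein with a fibronectin domain, stood at 94.2 ± 3.22 CPM in cortex and was at least 776-fold higher on the share scale, and V2, which was left out, had 135 counts of it. Slitrk2, a synaptic adhesion protein, was at least 543-fold higher and Dagla, which makes the endocannabinoid 2-arachidonoylglycerol, at least 425-fold. The others were Stk32c, Mycl, Camk2n2 (an inhibitor of the calcium kinase CaMKII), Tmem169, Maneal, Sntg1 and Coch, at least 313 to 408-fold higher. As genes at 0 in blood have the largest fitted values, their rank follows from those zeros. In the nPM pups the fitted log2 fold changes of the 10 were 3.34 to 5.25 (5.17 to 12.20 without V5), in place of 12.30 to 13.62 in the controls, and V2 had 26 counts of Dagla, 17 of Slitrk2, 79 of Coch and 552 of Mycl. On the blood side, each of the 10 had counts in cortex. They were the 4 adult globins, Alas2, Slc4a1, Isg20, Apol11b, Fam46c and Ppbp, and the globins, Alas2 and Fam46c were also among the 10 most abundant per kilobase.

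The most abundant blood transcripts were also found in cortex, most of them at a small proportion of their blood level. Among the exceptions were Eef1a1, Actb and mt-Co1, at 273, 151 and 111% of the blood level. Noncoding RNAs above 1000 CPM in blood, such as mt-Rnr2 and Rn7s1, were not in the set compared. Among the 96 genes of that set, all at 1000 CPM or more in blood, the median cortex level was 2.42% of the blood level. For 12 of them it lay between 0.00863 and 0.0222%, with Hbb-bs at 0.0180%, and the next gene was Ube2l6 at 0.0397%. The 12 were chosen as those at no more than 2 times the percent of Hbb-bs, so that their closeness follows from the choice. They included Hbb-bt, Hba-a2, Alas2, Hba-a1, Isg20, Apol11b, Fam46c, Rsad2 and Slc4a1. The median over the 12 was 0.0115% in V10, 0.0109% in V12, 0.0124% in V14, 0.0178% in V16, 0.0253% in V19 and 0.0259% in V24, highest in the 2 libraries of lane 3.

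Per kilobase of gene model, the leading protein-coding genes of cortex were mt-Co1, Tuba1a, mt-Nd1, mt-Cytb, Eef1a1, Calm2, Actb, Rplp1, mt-Co3 and Tubb2a, from 5754 to 892 CPM per kilobase. Those of blood were the 4 adult globins, Alas2, Ftl1, Bpgm, Ube2l6, Gpx1 and Fam46c, and the 5 after Alas2 ran from 9221 to 6705 CPM per kilobase. No gene stood among the 10 of both tissues. The place of mt-Co3 in the cortex list rested on V12, at 3242 CPM against 17.6 to 777 CPM in the other cortex libraries. The 10 most abundant protein-coding genes within 0.25 of a TMM log2 fold change of 0 were mt-Nd5, Rpl3, Rpl14, Uqcr11, Cox7c, Cdc42, Ywhah, Ppp1ca, Tubb4b and Aes. Their CPM was higher in cortex, as 486 ± 27.4 against 91.5 ± 13.6 for Cdc42, a small GTPase of the actin cytoskeleton.

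In 30 pairs of related genes, 1 form is known from blood cells and the other from brain or from many tissues. By TMM the blood form was higher in blood and the other form higher in cortex in 25 pairs, where 26.4 and 51.5% of all genes were called in those directions. On the share scale this was so in 24 pairs (9.76 and 84.6% of all genes), and 22 pairs were so on both scales. The 3 pairs so by TMM alone were those of Tuba4a, Stxbp2 and Coro1a, blood forms with log2 fold changes of -1.26, -1.80 and -2.43 by TMM and 1.34, 0.73 and 0.10 on the share scale. As the pairs were picked for such a contrast, the counts are a description. Tubb1, the platelet beta tubulin, made up 98.7 ± 1.27% of its level per kilobase with Tubb3 in blood and 0.00492 ± 0.00554% in cortex. Snap23, used for secretion in many cells, made up 99.2 ± 1.23% of its level with Snap25 in blood and 3.18 ± 0.576% in cortex, and Rac2 made up 97.9 ± 2.38% of its level with Rac3 in blood and 0.878 ± 0.265% in cortex.

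In cortex Alas2, the erythroid form of the heme enzyme, made up 30 ± 8.52% of its level with Alas1, the general form. The cortex level of Alas2 was 0.0157% of its blood level, beside 0.0180% for Hbb-bs. The source of the Alas2 reads in cortex was not tested. Hbb-bs made up 98.9 ± 0.333% of its level with Ngb, the neuronal neuroglobin, even in cortex. Ngb was at 0 in the 5 blood libraries and at 4.92 to 6.67 CPM in cortex. In 2 pairs both genes were higher in blood by TMM, Mpp1 with Mpp2 (membrane scaffolds) and Eif2ak1 with Eif2ak3 (translation kinases). The CPM of Mpp2 and of Eif2ak3 was higher in cortex, and on the share scale they had 1.01 and 1.67, in place of -1.53 and -0.86 by TMM. For Eno1 with Eno2 (enolases) and Aldoa with Aldoc (aldolases) both were higher in cortex, and Pklr, the red cell pyruvate kinase, was too low to be tested. The percentages of the 2 tissues did not overlap in 29 of the 30 pairs.

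**Figure D4:**
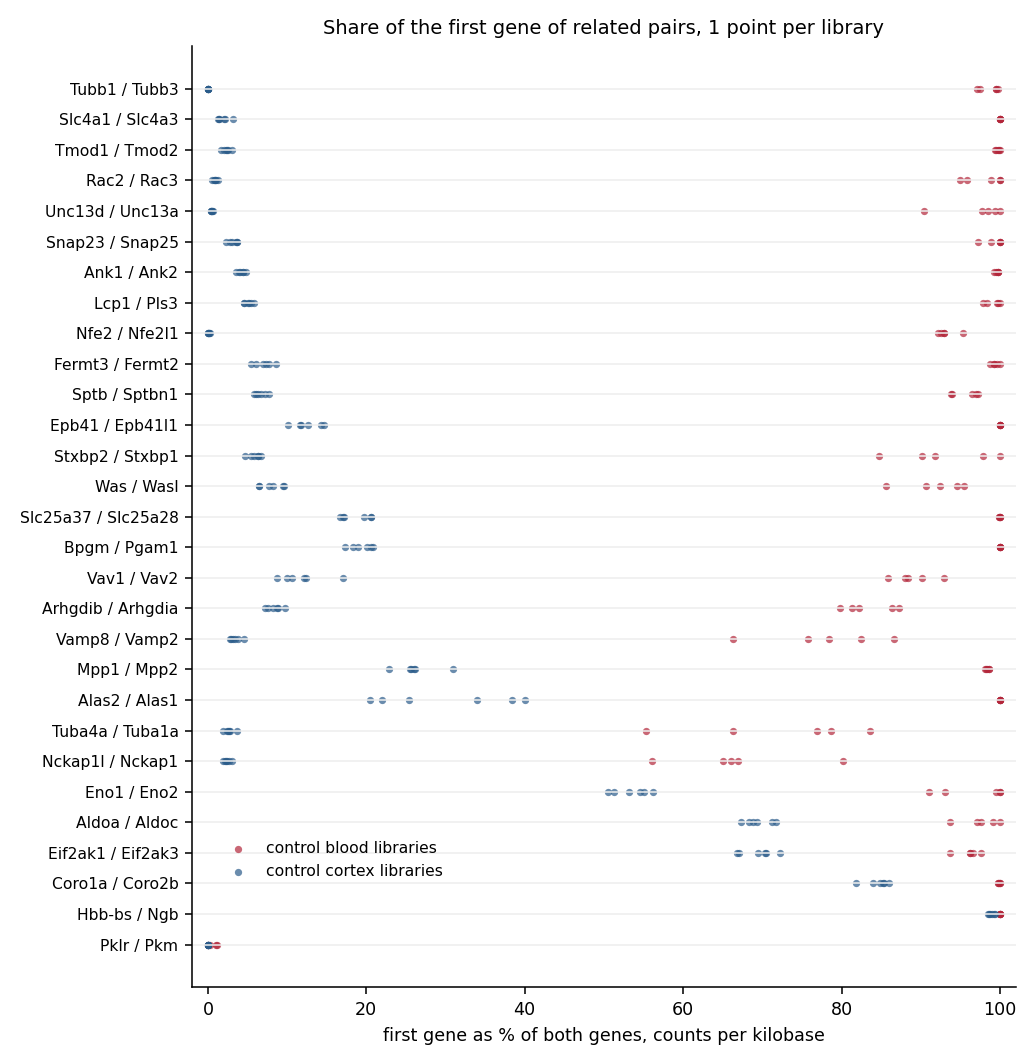
Share of the first gene, the form known from blood cells, in the summed level per kilobase of the gene pairs, with 1 point per library, blood in red and cortex in blue. The points of the tissues lie apart in each pair drawn except Pklr with Pkm.

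Genes of basic cell functions were also counted on both scales. Of 79 cytosolic ribosomal protein genes, 74 were higher in blood by TMM and none in cortex (median -1.85), but on the share scale 51 were higher in cortex and 18 in blood (median 0.67). Their summed level was 14920 to 17526 CPM in cortex and 12538 to 16857 CPM in blood, with overlapping ranges. Members were not alike, as Rplp0 of the ribosomal stalk stood at 2067 ± 390 CPM in blood and 467 ± 29.3 in cortex (-4.64 ± 0.17, -2.12 on the share scale), and Rpsa of the small subunit at 309 ± 62.2 and 765 ± 50.3 (-1.20 ± 0.16, 1.33). Of 75 nuclear genes of oxidative phosphorylation, 38 were higher in cortex and 20 in blood by TMM (median 0.38), close to the 51.5 and 26.4% of all genes. On the share scale 67 were higher in cortex and 1 in blood (median 2.95). Within ATP synthase, Atp5b stood at 939 ± 48.1 CPM in cortex and 874 ± 218 in blood (-2.49 ± 0.23, 0.11 on the share scale), and Atp5a1 at 842 ± 36.0 and 115 ± 27.6 (0.28 ± 0.21, 2.88 on the share scale).

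Of 34 proteasome genes, 22 were higher in cortex and 7 in blood by TMM (median 0.65), beside 51.5 and 26.4% of all genes, and 31 and 3 on the share scale (median 3.20). The CPM of each of the 34 was without overlap, as was that of 88.5% of all genes. Psmb8 and Psmb9, catalytic subunits of the immunoproteasome, were higher in blood on both scales (-5.65 ± 0.25 and -5.27 ± 0.42 by TMM). Psmd4, a ubiquitin receptor of the regulatory particle, stood at 251 ± 52.7 CPM in blood and 91.9 ± 3.07 in cortex (-4.03 ± 0.22). Of 23 tested glycolysis genes, 15 were higher in cortex and 4 in blood by TMM (median 1.34), and 21 and 1 on the share scale, beside 51.5, 26.4, 84.6 and 9.76% of all genes. Pfkp, the platelet form of phosphofructokinase by name, had 461 ± 53.8 CPM in cortex and 8.21 ± 2.51 in blood (3.25 ± 0.17), and Ldha, lactate dehydrogenase A, had 1.34 ± 0.16.

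The genes of the mitochondrial genome took 7.19 ± 0.588% of counts outside the globin genes in cortex and 11 ± 0.586% in blood, but as a share of all counts cortex was higher by 4.32 percentage points. Of its 13 protein genes, 3 were higher in cortex and 9 in blood by TMM (median -2.44), and 6 and 4 on the share scale (median 0.15). mt-Co1, a subunit of cytochrome oxidase, stood at 8890 ± 639 CPM in cortex and 8028 ± 1527 in blood, while mt-Nd1 of complex I stood at 2076 ± 142 and 172 ± 31.5 CPM and mt-Cytb of complex III at 2008 ± 156 and 257 ± 44.1.

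A stretch of 6 adjacent genes, mt-Co2, mt-Atp8, mt-Atp6, mt-Co3, mt-Nd3 and mt-Nd4l, varied by more than 100-fold among cortex libraries. mt-Co3 stood at 777 CPM in V10, 3242 in V12, 106 in V14, 79.6 in V16, 17.6 in V19 and 33.4 in V24, whereas blood ran from 1118 to 2048 CPM. mt-Nd3 departed from its neighbors in V19, at 91.4 CPM. mt-Co1 and mt-Nd4, the protein genes on either side, ran from 8047 to 9545 and from 399.5 to 544 CPM in the same 6 libraries. Pseudogene copies of such a stretch lie on chromosome 1 (24611535 to 24616197), and there Gm28437 stood at 101 CPM in V24 and at 22.4 to 34.4 CPM in the other 5 cortex libraries. Reads of a gene and a near-identical copy may be split or dropped at counting, so the tissue differences of these 6 genes are uncertain, and the cause of their spread was not tested.

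**Figure D5:**
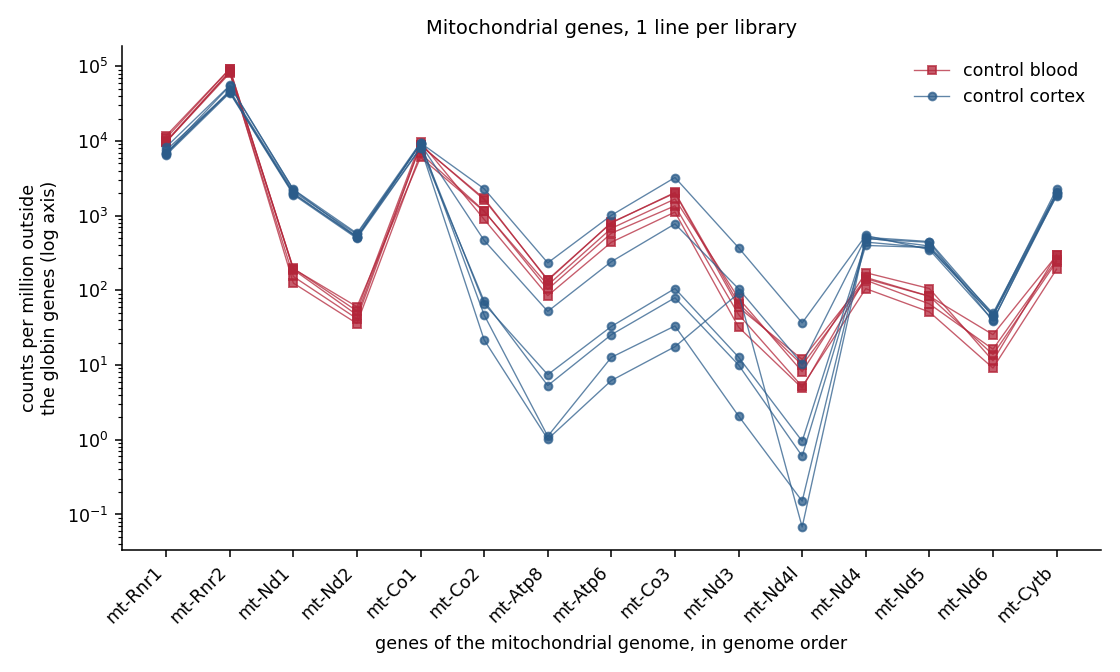
Level of the genes of the mitochondrial genome in genome order (CPM outside the globin genes, log axis), with 1 line per library, blood in red squares and cortex in blue circles. The 6 genes from mt-Co2 to mt-Nd4l spread over more than 100-fold among cortex libraries, while mt-Co1 and mt-Nd4 on either side do not.

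Noncoding RNAs were found on both sides. Of 12 tested nuclear long noncoding RNAs, 7 were higher in cortex and 4 in blood by TMM (median 1.71), and 10 and 2 on the share scale, close to the percentages over all genes (51.5 and 26.4, 84.6 and 9.76). Malat1, an abundant RNA of nuclear speckles, stood at 977 CPM in V4, 557 in V6, 633 in V8, 664 in V17 and 783 in V22, against 3304 to 5297 CPM in cortex (median 4327), with a TMM fold change of 0.00 ± 0.16 and 2.54 on the share scale. Meg3 and Rian, maternally expressed RNAs of an imprinted cluster on chromosome 12, had 5.21 ± 0.51 and 5.60 ± 0.41, and Neat1, the RNA scaffold of paraspeckles, had -4.45 ± 0.15. Among abundant small RNAs, 6 of 8 were higher in blood and 1 in cortex by TMM (median -1.80), and 2 and 5 on the share scale (median 0.75). Rn7s1, an RNA of the signal recognition particle, stood at 44280 ± 14329 CPM in blood and 3293 ± 1497 in cortex (-6.29 ± 0.31), and it has a near-identical copy, Rn7s2.

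By annotation, 502 of 1003 tested TEC genes (models awaiting experimental support) and 238 of 487 lincRNA genes were at least 4-fold higher in cortex, against 4757 of 14693 protein-coding genes. The cortex libraries had more counts outside the globin genes, so a gene could pass the count condition at a lower CPM through cortex than through blood. The counts by type and by span are therefore descriptions and do not support a difference between classes. Of 666 processed pseudogenes, 85 were at least 4-fold higher in cortex and 152 in blood by TMM (median -0.24), but 357 and 41 on the share scale (median 2.27). The span of protein-coding genes was also compared, without a test. The percent at least 4-fold higher in cortex by TMM was 29.6, 29.6, 27.7, 30.7 and 39.6 for gene spans under 5 kb, from 5 to 20, 20 to 50, 50 to 100 and 100 to 200 kb, and it was 63.9 for the 938 genes of 200 kb or more. For that last class the percent 4-fold higher in blood was 8.53 and the median log2 fold change was 3.79. The percent 4-fold higher in cortex on the share scale was between 66.8 and 73.8 in the 5 shorter classes and 85.2 in the longest.

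Genes of neighboring tissues were measured as well. Of 10 choroid plexus genes, 6 were higher in cortex and none in blood (median 5.38), against 51.5 and 26.4% of all genes. On the share scale their median was 7.19, and 4.82 with the 4 genes at 0 in blood at their bound. Ttr, the thyroxine carrier that choroid plexus makes in bulk, ran from 26.5 CPM in V14 to 378 CPM in V19 with a median of 334 CPM, and V14 alone was low. Of 9 tested striatal genes, 7 were higher in cortex (median 7.59), among them the dopamine receptor Drd1, at 26.0 to 55.7 CPM in cortex and at 0 in blood. The median of the striatal list on the share scale was 9.13, and 6.81 with the 4 tested genes at 0 in blood at their bound. Of 11 genes of meninges and fibroblasts, 3 were higher in cortex and 5 in blood by TMM (median -0.79), and 9 and 0 on the share scale (median 1.74). The TMM median was 0.43 without V6 and 0.25 within lane 3. The collagen gene Col1a1 of that list had 29.6 to 143 CPM in cortex and 12.8 to 72.0 CPM in blood. Of 12 tested skin genes, 1 was higher in cortex and 6 in blood by TMM, and 5 and 2 on the share scale. Of 5 tested skeletal muscle genes, 1 was higher in cortex and 3 in blood by TMM, and 2 and 1 on the share scale. The part of these tissues in the differences was not tested.

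The libraries of nPM pups, which shared no library with the controls, gave a second set for the same comparison. In them 5070 genes were at least 4-fold higher in cortex (28.1%) and 2975 in blood (16.5%). The genes at least 4-fold higher in cortex in both sets numbered 4610, 76.7% of those of the controls and 90.9% of those of the nPM pups, and those higher in blood numbered 2587 (96.8 and 87.0%). For the marker genes the log2 fold changes of the controls and of the nPM pups were 7.20 and 6.10 for Neurod6, 6.16 and 5.72 for Tubb3, -15.00 and -15.17 for Hbb-bs, and -15.08 and -15.36 for Hba-a1. The nPM blood libraries included V5, in which the 48 neuronal genes stood at 2.01% of the control cortex level. Several cortex lists had smaller medians in the nPM pups, and these moved with V5. The median log2 fold changes of the controls, of the nPM pups and of the nPM pups without V5 were 5.80, 3.32 and 5.62 for voltage-gated channels, 6.12, 3.94 and 6.16 for glutamate receptors, 5.27, 2.92 and 3.96 for radial glia, 4.27, 1.44 and 3.02 for the oligodendrocyte lineage, and 7.59, 3.48 and 5.85 for striatum.

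Whether the tissue difference itself differed between exposures or between sexes was tested with a product term. No gene was called for exposure by tissue over 23 libraries or for sex by tissue over the 11 (0% each by edgeR's quasi-likelihood test, smallest adjusted p of 0.380 and 0.127). At an unadjusted p under 0.05 there were 1625 genes (9.01%) and 1331 genes (7.38%). DESeq2 called 100 and 152 genes and limma-voom 0 and 10, so the counts of 0 rest on the tool. The smallest p for sex by tissue was that of Stk40, then Trib3 and mt-Nd3, and for exposure by tissue that of Slc30a6, then Dusp19 and Pex3. With 2 female blood libraries the sex term had little information. Xist, the RNA that silences an X chromosome in females, and Ddx3y of the Y chromosome followed the labelled sex in all 11 libraries, with 562 to 19357 counts of Xist in females and 1 to 42 in males, and with 0 to 6 counts of Ddx3y in females and 61 to 2855 in males.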

How the data were processed

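RNA was sequenced from 24 libraries, of which 11 are compared here. Per the labels and the methods, the authors depleted ribosomal RNA, trimmed reads with Trimmomatic, aligned them to mm10 with HISAT2 and counted them per Gencode gene with featureCounts 1.5.0-p3. The deposited values are raw counts per gene, and whether the counting used strand is not given in the sources used here. All 24 columns were mapped to samples by name.

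Genes with at least 10 counts in at least 5 of the 11 libraries were tested with edgeR 4.0.16 (R 4.3.3, TMM, quasi-likelihood F test, sex as covariate). The code was first run on simulated counts. These drew both tissues from the cortex levels with few genes changed, so they could not check the reference of the fold change. The edgeR fit was repeated with library sizes outside the globin genes and no factors. limma 3.58.1 and DESeq2 1.42.0 were alternatives, as were other filters, lanes, left-out libraries and the nPM pups. Library measures were compared by exact permutation tests.

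The members, gene lists and gene pairs were chosen with earlier results of these data known. Genes were named by rule: the markers, the 10 largest fold changes in each direction (level of at least 10 CPM), the 10 most abundant per kilobase, the 10 most abundant within 0.25 of a log2 fold change of 0, 4 members per list and up to 3 against its direction, both members of each pair, Xist, Ddx3y and the 3 smallest p-values of each product term. Genes given outside that rule, among them Gata1, the 11 genes found in blood alone, Rsad2, the most abundant protein-coding genes and the stretch from mt-Co2 to mt-Nd4, were chosen after their values were seen. A few genes that the rule names are not reported here. p-values measure the spread between pups of one experiment, and intervals and floors cover counting error only.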

Additional observations from a re-analysis of the deposited data

Results flagged for a closer look

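Of 110 groups of values (summed lists and single genes, per tissue), 18 had a library that stood apart from the rest of its group, where chance gives about 1 in 20. The single genes among them were chosen after their values were seen. No explanation was tested for any of them.

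In blood, the embryonic globins summed to 88.3 CPM in V6 and to 1.87 to 25.7 in the other 4 libraries. The red cell enzymes summed to 45823 CPM in V4 against 51429 to 53628, and the T and NK cell genes to 325 CPM in V4 against 86.2 to 140. In V22 the astrocyte list, of which Clu was the most abundant member in blood, summed to 190 CPM against 136 to 144. V22 also stood apart for Apol11b, an apolipoprotein L gene, with 8588 CPM against 476 to 1572, and for B2m with 551 CPM against 105 to 171. Of 13 genes known from interferon responses or antigen presentation, picked after their values were seen, 12 were highest in V22 among the blood libraries. Among them Oasl2 stood at 848 CPM against 38.9 to 162, Irf7 at 732 against 156 to 325, Isg15 at 635 against 168 to 348 and H2-D1 at 236 against 58.5 to 99.7.

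In cortex, the male library V14 had the lowest sums for choroid plexus (132 CPM against 479 to 537) and for endothelium and mural cells (425 CPM against 548 to 591). V24, also from a male, had the highest sums for antigen presentation (145 CPM against 86.6 to 98.9), for glycolysis (5570 CPM against 4697 to 5018) and for red cell maturation (1717 CPM against 1630 to 1657), and the highest B2m (64.9 CPM against 35.9 to 39.9). The 13 interferon and antigen presentation genes picked from blood, other than Isg15 and Usp18, were also highest in V24 among the cortex libraries. There H2-K1 stood at 15.8 CPM against 4.72 to 7.15, and Oasl2 at 1.48 CPM against 0.481 to 0.797. The embryonic globins were at 0.0637 CPM in V16 and at 0 in the other 5 libraries, a difference of 2 counts. In V12 the mitochondrial genome proteins summed to 21913 CPM against 13300 to 16399, and mt-Co2 (2293 CPM), mt-Atp6 (1012 CPM), mt-Co3 (3242 CPM) and mt-Nd3 (372 CPM) were each highest there.

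Signals outside the compared libraries were found in V2 and V5. In the control blood library V2 the skin list summed to 27186 CPM against 15.5 to 64.8 in the other control blood libraries. The 48 neuronal genes stood at 2.91% of the control cortex level in V2 and at 2.01% in the nPM blood library V5. In the 5 control blood libraries compared they stood at 0.292 to 0.783%.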

How the results depend on the processing

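Most alternatives changed 1 choice. The share scale changed the library sizes and the factors together. With the globin genes removed and TMM kept, the median of all genes was 0.98. DESeq2 changed the factors and the model together. Fits with other filters or libraries computed the TMM factors again on what they kept. The genes with 10 counts in each library had a median of -0.87 in the main fit and 0.19 in their own fit. Fold changes of these 2 fits thus have different references. Counts of genes higher in cortex (9280) and in blood (4751) became 2670 and 2290 when 10 counts were required in each library, and 15258 and 1759 on the share scale, while within lane 3 alone 6096 were higher in cortex. The 4-fold counts (6010 and 2672) became 876 and 1188 with 10 counts in each library and 13012 and 981 on the share scale, and 4044 were higher in blood when 1 count in any library sufficed. The median of all genes (0.99) was 0.19 with 10 counts in each library, 1.34 with 1 count in any, 3.49 on the share scale, 0.54 with upper-quartile factors, 0.62 by limma-voom and 0.56 with V2 added. Leaving out 1 library at a time gave 8724 to 9238 and 4550 to 4765 genes, 5711 to 6053 and 2614 to 2731 at 4-fold, and medians from 0.94 to 1.05.

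The sex term called 152 genes by DESeq2, 44 with 1 count in any library and 10 by limma-voom, and 0 to 4 without single libraries. The exposure term called 100 by DESeq2, 205 with 1 count in any library and 0 to 1 without single libraries. With V2 added, cortex minus blood was -69.9 points for globin share, 9796 genes with a count and -68.5 points for the top 10 share. Without single libraries these were -74.5 to -73.1 points, 10785 to 11399 genes and -73.1 to -72.1 points. With globin genes removed first, the top 10 difference was -29.3 points and the mitochondrial difference changed sign to -3.81 (4.17 to 4.49 without single libraries).

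With 10 counts required in each library, which removes genes low in blood, the list medians changed sign to -0.0052 for radial glia, -0.94 for microglia and -1.27 for endothelium. On the share scale they became 1.74 for meninges, 0.89 for skin, 0.64 for muscle, 0.67 for ribosomal proteins, 0.15 for mitochondrial genome proteins and 0.75 for small RNAs. Within lane 3 they were 0.25 for meninges, 1.18 for skin and 0.0053 for muscle, without single libraries -1.01 to 0.43 for meninges (0.43 without V6), and with upper-quartile factors -0.066 for oxidative phosphorylation. The cause of these changes was not tested.

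Single genes changed sign on the share scale, to 0.61 for Actb, 0.11 for Atp5b, 2.41 for Cdc42, 0.67 for Clu, 1.80 for Cnp, 0.10 for Coro1a, 0.61 for Col1a1, 2.34 for Cox7c, 1.59 for Csf1r, 0.94 for Cux1, 1.98 for Ddx3y, 1.46 for Eef1a1, 1.67 for Eif2ak3, 1.37 for Esam, 2.40 for Gm28437, 2.10 for Mbp, 1.01 for Mpp2, 1.45 for Notch1, 2.55 for Reln, 2.43 for Rpl14, 2.34 for Rpl3, 1.33 for Rpsa, 1.06 for Sema4d, 0.73 for Stxbp2, 1.34 for Tuba4a, 2.38 for Uqcr11, 0.12 for Vim, 1.13 for Xist, 2.40 for Ywhah, 0.15 for mt-Co1, 1.75 for mt-Nd4 and 2.34 for mt-Nd5. With 10 counts in each library, and so with another TMM reference, the values became 0.94 for Cdc42, 0.34 for Cnp, 0.85 for Cox7c, 0.12 for Csf1r, 0.21 for Eif2ak3, 0.93 for Gm28437, 0.62 for Mbp, 1.05 for Reln, 0.97 for Rpl14, 0.88 for Rpl3, 0.88 for Uqcr11, 0.93 for Ywhah, 0.27 for mt-Nd4 and 0.87 for mt-Nd5. With upper-quartile factors they were -0.44 for Malat1, -0.40 for Ppp1ca and -0.059 for mt-Cytb, and in nPM pups -0.44 for Cx3cr1 (-0.16 without V5), -0.47 for Malat1 and -0.010 for mt-Cytb.

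By the labels alone, no paired analysis was possible because no label ties a blood library to a cortex library of the same pup. Replicate numbers were given in accession order, so they do not pair the tissues either. The order of the library numbers would set V4 with V12, V6 with V14, V8 with V16, V17 with V19 and V22 with V24. The sexes match within each of these pairs. Whether they are pups in common is not stated, and a fit paired in this way was not tested. Blood depth outside the globin genes limits what can be seen of genes low in blood, and lanes 1 and 2 held a single tissue each.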
